A study of Caenorhabditis elegans with 4 samples.

Results

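Binding near the genes that set up cell polarity was examined in a chromatin immunoprecipitation (ChIP-seq) data set for CES-1, a zinc finger transcription factor of the Snail family. The set comprised 9 genes, par-1, par-2, par-3, par-4, par-5, par-6, pkc-3, cdc-42 and mrck-1, of 19973 protein-coding genes, and was chosen by name, as genes of the pathway, when the signal values of these lists were already known. A region was assigned to a gene when its summit, the position of highest signal, lay in the gene body or within 5 kb of it, so that one region can belong to several genes. By this rule 6 of the 1033 IDR peaks and 68 of the 25493 regions of the pooled list lay near the 9 genes. IDR peaks are those that passed the irreproducible discovery rate (IDR) step, which weighs how well peak ranks recur between replicates. A peak in that list need not rank high in every replicate.

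All libraries were made from whole animals of mixed sex of the nematode Caenorhabditis elegans, taken as L4 larvae, that is, just before adulthood. The strain, OP174, has the background mutation unc-119(ed3) and the integrated transgene wgIs174, which holds ces-1 with a TY1, EGFP and FLAG tag and a rescuing unc-119 gene, so the protein was expressed from an added copy in every sample. There was 1 group of 4 biological replicates and no comparison between conditions. The labels give a size range of 150 to 350 for replicates 1 and 2, whereas for replicates 3 and 4 they name microtip sonication. Read counts per library are unknown here. Whole animals mix all cell types, so a region cannot be placed in a tissue, and a region bound strongly in few cells cannot be told apart from one bound weakly in many.

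The PAR system divides the cortex of the one-cell embryo into an anterior domain, with the scaffold proteins PAR-3 and PAR-6, the atypical protein kinase PKC-3 and the small GTPase CDC-42, and a posterior domain with the kinase PAR-1 and the RING finger protein PAR-2. Each domain keeps the other out, largely through phosphorylation. PAR-4, a kinase of the LKB1 family, and PAR-5, a 14-3-3 protein, are found over the whole cortex and cytoplasm, and MRCK-1 is a kinase that binds CDC-42 and promotes contraction of actomyosin. Several of these proteins also act in the polarity of epithelia, neurons or migrating cells later in life.

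The sequences below show what lay under the summits of the 6 IDR peaks. Each is 151 bases long with the summit at base 76, is written 5′ to 3′ on the forward strand of WBcel235 (ce11), from RefSeq, and has in capitals any E-box, CANNTG, the class of motif that Snail factors bind. The windows span V:14140851-14141001 and V:14143592-14143742 for the par-1 peaks, III:5679066-5679216 for par-3, IV:11821981-11822131 for par-5, II:7612679-7612829 for cdc-42 and V:6267532-6267682 for mrck-1.
par-1 peak 1: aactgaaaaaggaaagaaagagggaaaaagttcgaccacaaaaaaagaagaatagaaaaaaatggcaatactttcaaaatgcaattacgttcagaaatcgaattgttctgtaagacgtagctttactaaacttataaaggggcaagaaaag
par-1 peak 2: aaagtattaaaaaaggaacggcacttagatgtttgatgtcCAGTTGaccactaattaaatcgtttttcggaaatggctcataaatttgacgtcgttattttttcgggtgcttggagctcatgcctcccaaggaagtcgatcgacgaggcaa
par-3: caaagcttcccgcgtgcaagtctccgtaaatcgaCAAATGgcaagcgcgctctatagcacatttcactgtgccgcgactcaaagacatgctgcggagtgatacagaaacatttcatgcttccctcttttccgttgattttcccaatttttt
par-5: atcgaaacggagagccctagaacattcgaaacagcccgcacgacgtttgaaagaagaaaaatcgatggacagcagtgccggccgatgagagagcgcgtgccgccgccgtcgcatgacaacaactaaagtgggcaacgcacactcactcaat
cdc-42: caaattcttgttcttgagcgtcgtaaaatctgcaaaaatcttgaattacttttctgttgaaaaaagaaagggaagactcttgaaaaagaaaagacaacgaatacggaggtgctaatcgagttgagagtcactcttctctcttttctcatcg
mrck-1: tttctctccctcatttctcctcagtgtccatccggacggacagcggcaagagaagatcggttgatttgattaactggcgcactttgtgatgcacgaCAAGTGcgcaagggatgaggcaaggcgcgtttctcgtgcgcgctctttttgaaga

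An E-box was found in 3 of the 6 windows. It was CAGTTG at -35 from the summit in par-1 peak 2, CAAATG at -41 in the par-3 window and CAAGTG at +21 in the mrck-1 window, counted to its first base on the forward strand. CAGGTG, the E-box best known for Snail factors, was in none of the 6 on either strand. Over windows of the same length, CANNTG was present in 43.4% of 1007 nuclear IDR peaks and 42% of 24459 pooled regions outside the IDR list, and CAGGTG in 1.59% and 3.26%, both strands searched. A match in such a window is a description of its letters only.

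The windows differed in base composition. The G and C content was 54.3% at par-5, 52.3% at mrck-1, 46.4% at par-3, 41.1% at par-1 peak 2, 36.4% at cdc-42 and 31.8% at par-1 peak 1, beside medians of 41.1% over nuclear IDR peaks and 33.8% over the other pooled regions. A pair of short strings was counted after the sequences had been seen. GAGAG occurred, on either strand, in the par-5, cdc-42 and mrck-1 windows, and in 49.2% of IDR windows and 22.6% of the other pooled windows. GCGCG, also on either strand, occurred at par-3, par-5 and mrck-1, with 19.2% of IDR windows and 7.0% of the others. The strongest par-1 window held neither string and no E-box.

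Of the 9 genes, 5 had an IDR peak within reach: mrck-1, par-1, par-3, cdc-42 and par-5. Over all protein-coding genes the share was 10.5%, but since the genes were listed with these peaks known, the count is given as a description. The shares in this paragraph were also not matched for gene length. Except for par-5 and cdc-42, each member was longer than 78.8% to 99.8% of protein-coding genes. In the gene body itself an IDR summit was present at 1 member, par-1, with 1.71% of all protein-coding genes. In the promoter window, reaching 1000 bp upstream and 200 bp downstream of each 5′ end of the gene, there was one at 3 members, par-1, par-5 and mrck-1, with 2.61% of all genes. No IDR peak was in reach of par-2, par-4, par-6 or pkc-3.

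**Figure D1:**
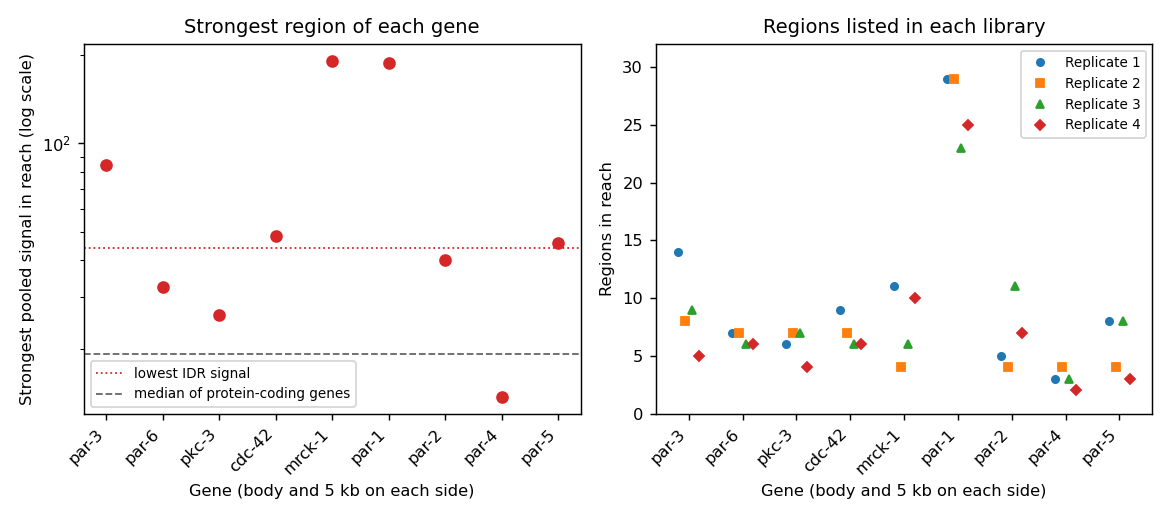
Left, signal score of the strongest pooled region within 5 kb of each gene (log scale), with the lowest signal of the IDR list (44.18, dotted) and the median over protein-coding genes (19.1, dashed). Right, number of regions in reach of each gene in the 4 libraries; mrck-1 and par-1 lie highest on the left, and par-1 lies highest on the right in each library, with 23 to 29 regions.

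Signal is the score the authors' peak caller gave each region. Its scale is not stated, it differs between lists, and it is used here only to rank regions within one list. The IDR list was the 1033 regions of highest signal in the pooled list, down to 44.18. The member peaks just inside that threshold were those of par-5 (45.7), par-1 peak 2 (48.0) and cdc-42 (48.4), and the strongest regions just outside were those of par-2 (40.2), par-1 (38.9) and mrck-1 (38.0).

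Among the anterior genes, the CDC-42 effector kinase gene mrck-1 (WBGene00006437, chromosome V, 6257390 to 6267287, minus strand) had the strongest peak. The peak spanned 6267513 to 6267684 on chromosome V, with its summit at 6267607, 320 bp upstream of the mrck-1 5′ end. No other protein-coding gene began nearer than F31F7.2, at 3245 bp. The summit also lay in exons of the non-coding RNA genes F31F7.6 and F31F7.8. The pooled signal was 191.3, rank 36 of 25493, and 99.8% of protein-coding genes had a weaker strongest region in reach.

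The mrck-1 peak was present in every library at nearly the same position. Its signal was 65.8, 47.57, 25.21 and 56.8 in replicates 1 to 4, which is rank 37, 79, 45 and 32 among the 30000 regions of each. The library summits lay 14, 9, 13 and -6 bp from the IDR summit, closer than the median over all IDR peaks, which was 27, 19, 42 and 33 bp in absolute distance. Further upstream, at 6268579 to 6268922, a region of pooled signal 38.0 fell outside the IDR list. It ranked 2082, 512 and 7202 in replicates 1, 2 and 4 and had no overlapping region in replicate 3. The mrck-1 body held no pooled region.

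PAR-3 is the scaffold around which the anterior complex forms, and its gene (WBGene00003918, chromosome III, 5664233 to 5676795, plus strand) had an IDR peak in reach that lay beyond its 3′ end. The peak, at 5678969 to 5679312 on chromosome III, was between the divergent genes ska-3, a kinetochore gene, and rps-12, a ribosomal protein gene, 136 bp upstream of the one and 157 bp upstream of the other. The nearest 5′ end of par-3 was 10600 bp away. The pooled signal was 84.6, rank 205, and the ranks in replicates 1 to 4 were 175, 352, 1078 and 332, with signals of 29.5, 27.75, 8.83 and 19.9. Replicate 3 ranked it lowest, and its median rank over all IDR peaks, 1311.5, was also the lowest of the 4 libraries (670, 589 and 727 in replicates 1, 2 and 4).

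At par-3 itself the regions were weaker. The body held 0 pooled regions, and at the 5′ end a region 168 bp upstream ranked 22430 in the pooled list and overlapped a region in replicates 2 and 4, at ranks 3943 and 26454. A region 2409 bp upstream of par-3, but nearer to the neighbour F54E7.6 (739 bp upstream of it), had a signal of 26.6, rank 2959. It overlapped regions of all 4 libraries at ranks 14980, 3627, 20377 and 1256, a spread from the first 2000 of one library to the weaker part of another.

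**Figure D2:**
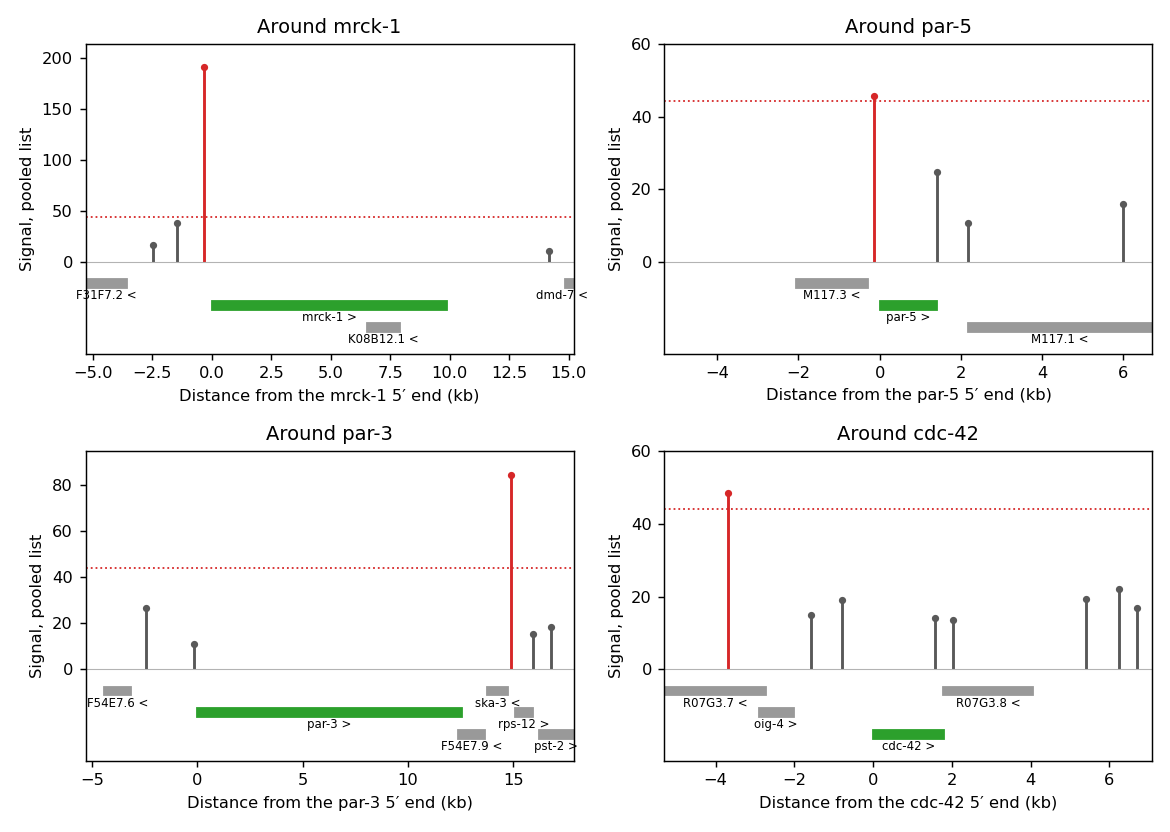
Pooled regions around mrck-1, par-5, par-3 and cdc-42. The x axis is distance from the 5′ end of the gene along its strand (kb), stems give pooled signal with IDR peaks in red and the lowest IDR signal dotted, and bars give protein-coding genes with the member in green; the IDR peak lies next to the 5′ end of mrck-1 and par-5, beyond the 3′ end of par-3, and inside R07G3.7 upstream of cdc-42.

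PAR-6, the partner of PAR-3 and PKC-3 in the anterior complex, had no IDR peak near its gene (WBGene00003921, chromosome I, 12669380 to 12674449, plus strand). The strongest of its 7 pooled regions had a signal of 32.5, rank 1997, and its summit lay in the par-6 3′ UTR. It overlapped regions ranked 7393, 8467, 12537 and 2331 in replicates 1 to 4. The par-6 region with the best rank in a single library was at rank 2120 of replicate 3, close to the neighbouring gene ndx-1. All 7 pooled summits lay in the par-6 3′ UTR or beyond the gene, while single libraries also listed regions in par-6 introns and upstream, such as one at rank 4305 of replicate 3.

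At pkc-3, which encodes the atypical protein kinase (WBGene00004034, chromosome II, 5380027 to 5384169, plus strand), 4 pooled regions were in reach and 0 in the body. The strongest, at signal 26.0 and rank 3095, lay 268 bp upstream of the upstream neighbour prdx-2, a peroxiredoxin gene, and 2100 bp from pkc-3. It had ranks of 16832, 5548 and 8008 in replicates 1, 2 and 4 and no region in replicate 3. A region 252 bp upstream of the pkc-3 5′ end had a signal of 19.2, rank 6115. Its ranks were 1725, 9642 and 18691 in replicates 1, 2 and 3, with none in replicate 4, so that replicate 1 alone placed it among its 2000 strongest.

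The gene of the GTPase CDC-42 (WBGene00000390, chromosome II, 7616452 to 7618245, plus strand) had an IDR peak 3698 bp upstream of its 5′ end. The peak, at 7612582 to 7612925 on chromosome II, lay in an intron of the neighbouring gene R07G3.7, 545 bp downstream of the nearest 5′ end of that gene and 787 bp upstream of oig-4. The pooled signal was 48.4, rank 829. Its signal was 12.86, 19.71, 2.74 and 12.13 in replicates 1 to 4, and its ranks were 1292, 828, 23574 and 1805. Replicate 3 stood apart: the signal there was 0.748 times the median of that library's list, against 3.13, 3.84 and 1.98 times in replicates 1, 2 and 4. Replicate 3 was also the weakest over all IDR peaks, with a median rank of 1311.5 against 670, 589 and 727. It had an overlapping region at 87.3% of them, against 98.6%, 99.2% and 97.3%. The best-ranked region anywhere in reach of cdc-42 in replicate 3 was at 15218, against 1292, 828 and 1061 in the others. Closer to the gene, a region 799 bp upstream had a pooled signal of 19.1 and ranks of 12279, 9750 and 1061 in replicates 1, 2 and 4.

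**Figure D3:**
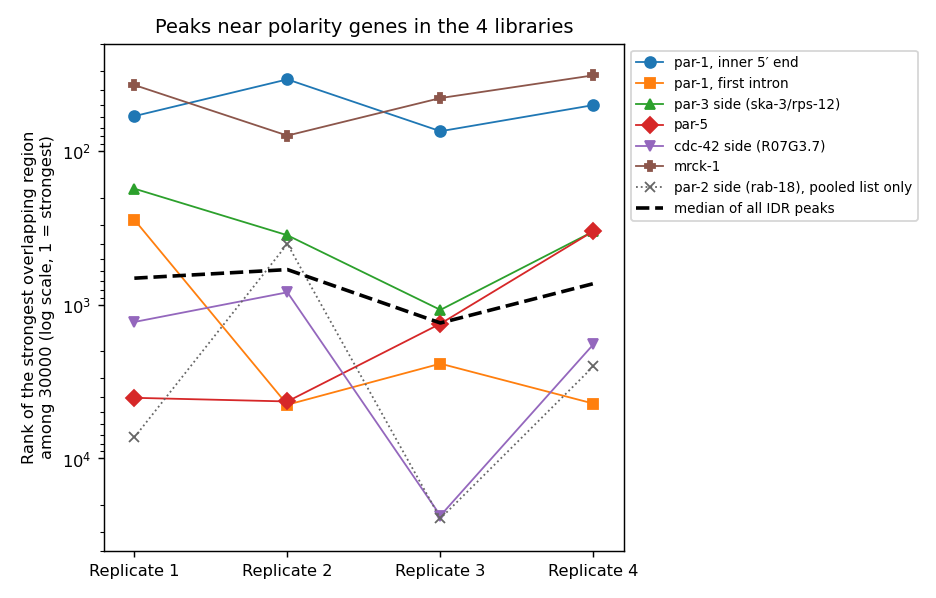
Rank of the strongest overlapping region in each of the 4 libraries (log scale, 1 is the strongest of 30000) for the 6 IDR peaks near polarity genes and for the strongest par-2 region, which was in the pooled list only. The dashed line is the median over all IDR peaks; the upper par-1 peak and the mrck-1 peak stay within the first 79 regions of every library, while the cdc-42 and par-2 regions drop to 23574 and 24595 in replicate 3.

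Of the posterior genes, par-1 carried more regions than any other member. It encodes a serine/threonine kinase of the MARK family and is a long gene (WBGene00003916, chromosome V, 14112033 to 14145367, minus strand) with 18 annotated transcripts that start at 11 different positions. Within reach there were 2 IDR peaks and 26 pooled regions, 23 of them in the body. A length of 33335 bp made par-1 longer than 99.8% of protein-coding genes, and counted per length it had 6.0 pooled regions per 10 kb, with a median of 2.1 over all genes and 6.78 at the short cdc-42. Its regions in reach numbered 29, 29, 23 and 25 in replicates 1 to 4.

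The stronger par-1 peak (peak 1) spanned 14140864 to 14141008 on chromosome V, with its summit at 14140926. It was 145 bp wide, while 91.2% of IDR peaks had the width of 344 bp. The summit lay 4441 bp downstream of the outermost 5′ end but only 193 bp downstream of an inner 5′ end, at 14141119, from which 2 transcripts start. It was in intron 1 of 3 transcripts: H39E23.1a and H39E23.1j, whose intron is 7794 bp long, and H39E23.1m, which starts further upstream and has an intron of 11745 bp there.

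That peak was among the strongest of each library. The pooled signal was 187.7, rank 42, and the ranks were 59, 34, 74 and 50 in replicates 1 to 4, with signals of 49.25, 73.57, 20.53 and 44.08. The library summits were 25, 13, -23 and -33 bp from the IDR summit. So the 4 libraries placed it on both sides of one point and within the first 74 of 30000 regions.

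The weaker peak (peak 2), at 14143495 to 14143838, lay 1700 bp downstream of the outermost 5′ end, in intron 1 of H39E23.1m, the only transcript that starts there. Its pooled signal was 48.0, rank 853. Replicate 1 ranked it 279 with a signal of 24.64, and replicates 2 to 4 ranked it 4468, 2414 and 4393 with signals of 9.15, 7.19 and 9.43. It was thus strong in 1 library and moderate in 3. Between these peaks, a region at 14142166 to 14142509 with a pooled signal of 38.9 ranked 10354, 680 and 6263 in replicates 1, 2 and 4 and had no counterpart in replicate 3.

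**Figure D4:**
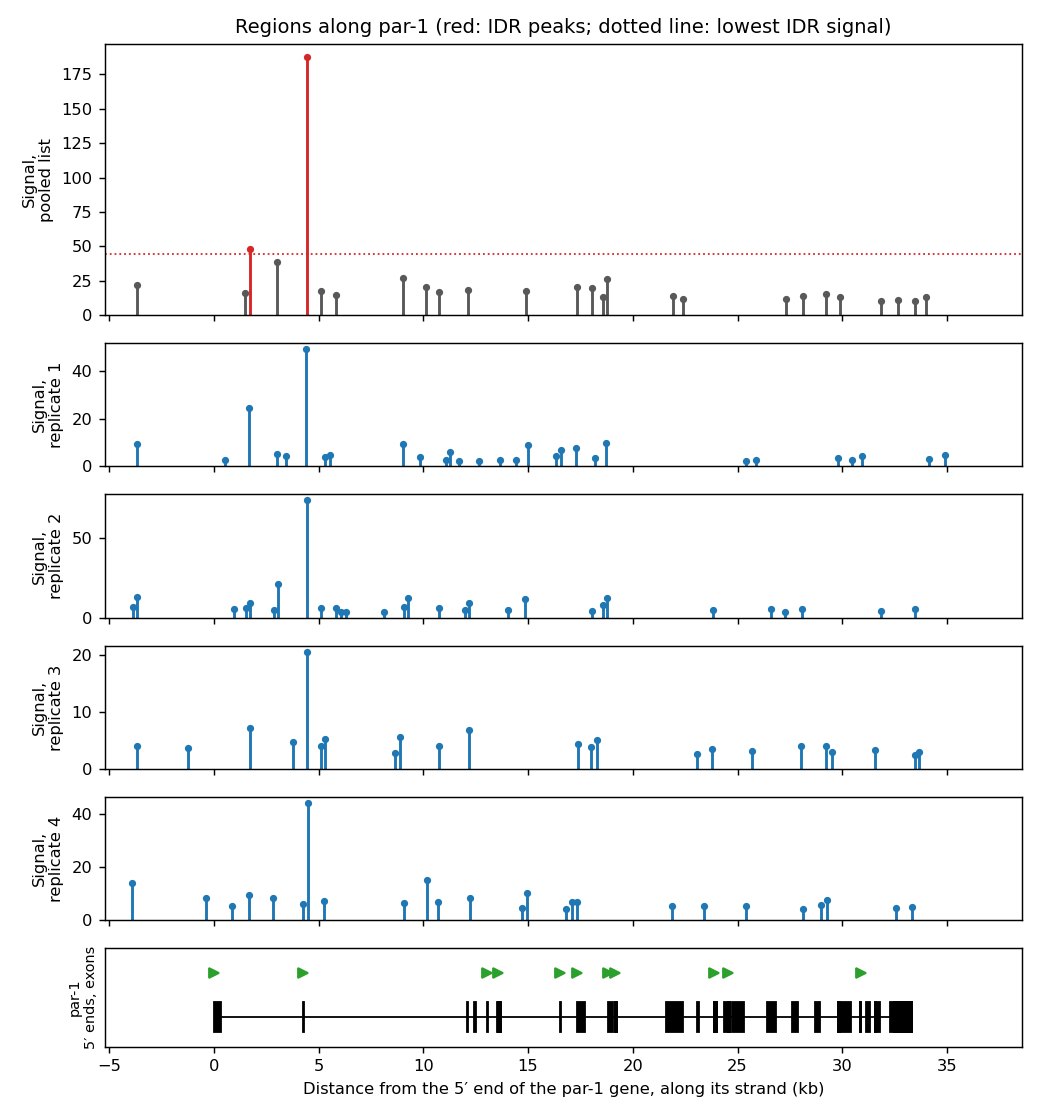
Signal of every region along par-1 in the pooled list (top) and in replicates 1 to 4, against distance from the outermost 5′ end along the gene (kb); each panel has its own signal scale. Red stems are the 2 IDR peaks, triangles are the 11 annotated 5′ ends and boxes are exons; the stem beside the inner 5′ end, at 4441 bp, is the tallest in all 5 panels.

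The other 5′ ends of par-1 were less marked. Of the 11, 4 had a pooled summit within 500 bp. These included the inner end beside peak 1, and the ends at 14126538 and 14126206 shared the same summit. The end that starts most transcripts, 14126538 with 7, had a summit 47 bp upstream of signal 26.5, rank 2969, which ranked 2440 in replicate 1 and 2410 in replicate 2 and had no overlapping region in replicates 3 and 4. A 5′ end at 14128055, with 1 transcript, had a summit 40 bp downstream of signal 20.2 with regions in replicates 1, 3 and 4. At the outermost 5′ end itself the nearest pooled summit was 1499 bp downstream. Of the 26 pooled regions, 7 overlapped a region of all 4 libraries, 8 of 3, 6 of 2, 4 of 1 and 1 of 0. Among the 7 was the region 1499 bp downstream of the outermost 5′ end, whose strongest library regions were those of peak 2.

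PAR-2 holds the posterior domain, and its gene (WBGene00003917, chromosome III, 1081401 to 1095082, plus strand) had no IDR peak but the strongest member region just below the threshold. That region, at 1080549 to 1080892, had a pooled signal of 40.2, rank 1254. Its summit was in the 5′ UTR of the divergent neighbour rab-18, a GTPase gene, 54 bp from its start and 680 bp upstream of par-2, with kbp-4 between them. The signals in replicates 1 to 4 were 6.05, 26.52, 2.65 and 11.04, and the ranks 7293, 401, 24595 and 2513. Replicate 2 was high and replicate 3 low, and in replicate 3 the overlapping summit lay 335 bp away, inside kbp-4. In the 13682 bp body of par-2, the pooled list had 3 regions, all with a signal of 11.4 or less, and each overlapped regions of 1 or 2 libraries.

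Of the genes whose products are not confined to a domain, par-5 (WBGene00003920, chromosome IV, 11820506 to 11821924, minus strand), which encodes a 14-3-3 protein, had an IDR peak next to its 5′ end. The peak spanned 11821884 to 11822227 on chromosome IV with its summit 132 bp upstream of par-5 and 150 bp upstream of the divergent gene M117.3, in exons of the non-coding RNA genes M117.11 and M117.12. It cannot be assigned to one gene of this pair. The pooled signal was 45.7, rank 937. The strongest overlapping region had a signal of 7.86, 9.35, 8.33 and 19.94 in replicates 1 to 4, at ranks 4028, 4255, 1326 and 331. Replicate 3 listed 2 overlapping regions, and the one with the closer summit had a signal of 4.68 and rank 9005. Replicate 4 thus ranked the peak highest, and the place of replicate 3 turned on which of its regions was taken.

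The summit at par-5 was the least well placed of the 6. Replicates 1, 2 and 4 put it 120, 95 and 72 bp to the right of the IDR summit on the forward strand, on the side of M117.3, while in replicate 3 the stronger region had its summit 158 bp to the left, inside par-5, and the weaker one 43 bp to the right. At the other 5 peaks the summits of the strongest overlapping regions lay within 50 bp of the IDR summit.

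**Figure D5:**
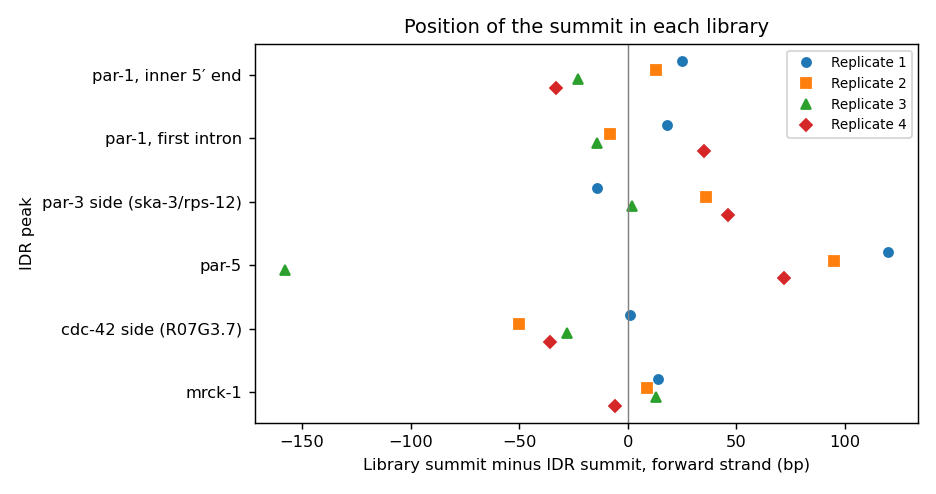
Distance of the summit of each library's strongest overlapping region from the IDR summit (bp, forward strand) at the 6 IDR peaks near polarity genes. Points of the other peaks lie between -50 and 46 bp, while those of par-5 run from -158 to 120 bp; the second, weaker region of replicate 3 at par-5 is not drawn.

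The gene of the LKB1-like kinase PAR-4 (WBGene00003919, chromosome V, 18098687 to 18106405, plus strand) had the lowest pooled signal of the 9 at its strongest region. Its 5 pooled regions reached a signal of 13.7, rank 13946, below the 19.1 that is the median over protein-coding genes of the strongest region in reach, and 29.3% of protein-coding genes had a weaker one. That strongest region lay 498 bp upstream of the neighbour Y37H2A.1 and overlapped a region in replicate 1 only, at rank 7539. A region 184 bp upstream of par-4, with a signal of 11.7, overlapped one in replicate 3 only, at rank 3957. That was the best rank near par-4 in replicate 3, above the best at pkc-3 (5962) and at cdc-42 (15218). No pooled region near par-4 overlapped regions of more than 2 libraries.

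Ordered by their strongest pooled signal in reach, the genes were mrck-1, par-1, par-3, cdc-42, par-5, par-2, par-6, pkc-3 and par-4. The share of protein-coding genes with a weaker strongest region was 99.8%, 99.7%, 97.9%, 91.5%, 90.4%, 87.4%, 81.0%, 73.7% and 29.3% in that order. The upper pair did not keep one order between libraries: mrck-1 ranked above par-1 in replicates 1, 3 and 4 and below it in replicate 2. The ranks of the par-3 peak, 175 to 1078, lay below all those of the upper pair, 32 to 79. From par-3 down to par-4, the range of best ranks of each gene over the 4 libraries overlapped that of the next gene. Within each library, however, par-3 ranked above cdc-42, with 175, 352, 1078 and 332 against 1292, 828, 15218 and 1061. The later neighbours changed order between libraries.

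When only the 2000 strongest regions of a library were counted, the members with one in reach numbered 5, 5, 4 and 5 in replicates 1 to 4. Over all protein-coding genes the shares were 19.2%, 19.1%, 20.1% and 19.8%. The genes mrck-1, par-1 and par-3 were counted in all 4 libraries, par-3 through the peak beyond its 3′ end. cdc-42 was counted in replicates 1, 2 and 4, par-5 in replicates 3 and 4, pkc-3 in replicate 1 and par-2 in replicate 2, and par-4 and par-6 were counted in none.

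All 6 member IDR peaks overlapped a region of each library, as did 83.4% of the 1033 IDR peaks. Of the 68 pooled regions, 18 overlapped a region of all 4 libraries, 19 of 3, 16 of 2, 13 of 1 and 2 of 0, and over the whole pooled list 11.9% overlapped a region of all 4. Adjacent pooled regions could overlap the same library region, as at par-1 and par-6, so these are not counts of separate sites. The libraries listed 92, 74, 79 and 68 regions in reach of the members. For single genes the number averaged from 3.0 ± 0.82 at par-4 to 26.5 ± 3.0 at par-1 (SD, n = 4 libraries).

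Most of the 68 pooled summits were outside coding sequence. There were 29 in introns (42.6%), 21 between genes (30.9%), 9 in 3′ UTRs (13.2%), 5 in exons of non-coding genes (7.35%), 2 in 5′ UTRs (2.94%) and 2 in coding exons (2.94%). Over the nuclear pooled regions the shares were 33.3% in introns, 43.8% between genes, 4.94% in 3′ UTRs, 3.59% in non-coding exons, 1.98% in 5′ UTRs and 12.4% in coding exons. Of the 31 pooled summits that lay in member bodies, 23 were in par-1. Most of the intron summits were also in reach of par-1, so the intron share mainly describes that gene and not the members as a set. In all, the 179.6 kb around the members held 6 IDR peaks and 68 pooled regions, which is 33.4 IDR peaks per Mb and 3.79 pooled regions per 10 kb. The nuclear genome had 10.04 IDR peaks per Mb and 2.54 pooled regions per 10 kb.

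Other genes of the polarity pathway were taken from a list of 65 symbols, of which 64 matched the annotation. An IDR peak was in reach of 12 of them (18.8%, with 10.5% over all protein-coding genes, not matched for length). In the promoter window there was one at 3, with 2.61% of all protein-coding genes. The strongest peak in reach was nearer to the gene's own 5′ end than to that of any other protein-coding gene at 6. The strongest were at the neuronal polarity kinase gene sad-1 (signal 80.0, rank 238), 1372 bp downstream of its 5′ end, and the guanine nucleotide exchange factor gene unc-73 (79.5, rank 249), 605 bp upstream. The sad-1 peak ranked 610, 280, 979 and 295 in replicates 1 to 4, and the unc-73 peak 957, 330, 21101 and 164.

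Junction genes in the list with a peak were hmp-1, which encodes alpha-catenin (65.1), ajm-1, an apical junction gene (51.1), and hmr-1, which encodes a classical cadherin (45.8). Of the genes that act with PAR-4 or the AMP-activated kinase there were mop-25.1, for an MO25 protein (54.4), and aak-2, for a catalytic subunit (51.3). ftt-2, which encodes the other 14-3-3 protein, had an intergenic peak of signal 49.8 whose nearest 5′ end was its own, 1799 bp away, and which ranked 733, 1530, 451 and 1111 in replicates 1 to 4. The remainder were gsk-3 (53.1), the embryonic zinc finger genes mex-1 (52.4) and mex-6 (46.5), and the G protein gene goa-1 (49.9). Several of these lay nearer to another gene, as at mop-25.1, where the summit was 20 bp upstream of hrg-1, at mex-1, 151 bp upstream of W03C9.5, and at gsk-3, 61 bp inside Y18D10A.4. Not all were listed in every library: the mex-1 peak had no overlapping region in replicate 3, those at mex-6 and mop-25.1 none in replicate 4, and that at aak-2 none in replicate 1. None of the 12 came near the signals at mrck-1 and par-1, which were 191.3 and 187.7.

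Peaks whose ranks in the 4 libraries were most like those of a member peak were found by the Euclidean distance of log10 ranks, among the 856 other IDR peaks with a region in every library. For par-1 peak 1 they were the peaks nearest to Y49F6B.2 (distance 0.223), apl-1 (0.243) and unc-42 (0.255), and for mrck-1 those nearest to cest-16 (0.191), pqn-41 (0.211) and F19H6.5 (0.292). The apl-1 peak, for example, ranked 62, 55, 94 and 58 and lay 889 bp upstream of the gene. For par-3 they were at ZC449.4 (0.164), aldo-1 (0.198) and odr-2 (0.31), and for par-5 at jip-1 (0.259), smoc-1 (0.341) and unc-31 (0.402). The peaks most like that near cdc-42 were at pmk-2 (0.194), dpm-3 (0.213) and add-1 (0.274), which ranked 16185, 29166 and 13236 in replicate 3. The likeness is over 4 libraries of one group and says only that the peaks had similar ranks.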

How the data were processed

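Libraries from whole L4 larvae forming 1 group of 4 biological replicates were analysed under the labels' replicate numbers; nothing in the labels says whether they came from separate cultures. The authors deposited narrowPeak lists for ce11 (WBcel235): 30000 regions for each library, a pooled list and an IDR-thresholded list, per the file records deposited with the samples. The signal score of each region is the authors' own value. Its scale, the peak caller, the aligner and the IDR threshold were looked for in the labels and file records and are not given there. The ce10 lists and the control library were not used here. Replicates 1 to 4 have commonest widths of 316, 336, 356 and 370 bp, and in replicate 1 there were 6 rows that repeat coordinates of another; these were kept. Depth is unknown, so no interval was computed.

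From these lists, summits were taken as the start plus the deposited offset and are given 1-based. Genes were those of Ensembl release 115 and sequences those of the RefSeq WBcel235 genome. A region overlapped another when they shared 1 bp or more, and the strongest overlapping region of a library gave its rank. No test between groups or gene sets was made, and Dixon's ratio served only to single out libraries. The 9 members, the list of 65 partner genes (1, daf-21, had no match) and all windows were chosen with earlier results of these data known. Named genes were all members, genes with the nearest 5′ end, every partner with an IDR peak and the 3 most similar IDR peaks per member. In a test on planted data, the summit assignment and motif counts were recovered. Python 3.11.15, numpy 2.4.6, pandas 2.3.3 and matplotlib 3.10.9 were used.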

Additional observations from a re-analysis of the deposited data

Results flagged for a closer look

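In each of 27 sets of 4 library values, the highest or lowest library was set against the others by Dixon's ratio of gap to range, at its critical value for the 5% level. This singled out 2 values, both from replicate 3 at cdc-42. If values were normal and sets independent, about 1 set in 20 would pass by chance. At cdc-42 the ratio was taken on ranks as listed, which need not be normal. Both sets hold the values 1292 and 828, so they do not count as 2 separate flags. The IDR peak upstream of cdc-42 ranked 23574 in replicate 3, against 1292, 828 and 1805 in replicates 1, 2 and 4. The best rank of any region in reach of cdc-42 was 15218 in replicate 3, against 1292, 828 and 1061 in the others. Over all IDR peaks, replicate 3 had the weakest median rank of the 4 libraries, 1311.5. Its share of IDR peaks with an overlapping region, 87.3%, was also the smallest.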

How the results depend on the processing

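No paired analysis was possible because all samples belong to 1 group. The number of members with an IDR peak, 5, depended on the reach: it was 1 in the gene body only, 3 in the body and 1 kb, 3 with IDR peaks of above-median signal, 3 when a summit counted only for the nearest protein-coding 5′ end, and 3 in the body or own promoter window, an alternative chosen after seeing the data. The 6 IDR peaks became 2 in the body only and 3 with IDR peaks of above-median signal. When only the 2000 strongest regions of each library counted, 3 of the 6 were found in every library. The 68 pooled regions became 43 with regions of above-median signal and 44 in the body and 1 kb. The members with an IDR peak in the promoter window were 2 with a window from 500 bp upstream to 100 bp downstream and 3 as reported. With a library summit required within 100 bp, 5 of the 6 peaks were found in every library. Without 1 library, the median rank of the par-5 peak, 2677, was 1326 (without replicate 1 or 2) or 4028 (without replicate 3 or 4), and at the other 5 peaks it moved by at most 1.41 times. Taking the overlapping region with the closest summit, an alternative chosen after seeing the data, changed 1 of the 24 library values, that of replicate 3 at par-5, and its median rank became 4141.5. Read depth, which is unknown, limits what a missing region means: it says only that the library did not list one among its 30000.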
